A study of Mus musculus with 2 samples.

Results

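The genes described here are 10 genes of fatty acid synthesis and desaturation in mouse liver: Scd1, Fasn, Acaca, Acly, Elovl6, Elovl5, Fads1, Fads2, Thrsp and Mlxipl. They were chosen by symbol, and 10 of 10 were found among the 31053 genes of the deposited files. Single liver cells of C57BL/6 mice were sequenced in 2 libraries. In the chow group the mice ate chow for 6.5 weeks, and in the NASH diet group they ate for the same 6.5 weeks a diet high in fructose, fat and cholesterol, given to model non-alcoholic steatohepatitis (NASH). Per the labels, the liver was digested with collagenase and the cells were collected over 90% and 25% Percoll, so that hepatocytes of several densities and non-parenchymal cells entered the same library. The labels give neither age nor sex nor the number of mice behind a library, and each diet had 1 library. No difference between the diets could therefore be tested or set against a spread between animals.

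Hepatocytes build fatty acids from citrate that leaves the mitochondria. Acly cleaves this citrate into cytosolic acetyl-CoA, Acaca carboxylates acetyl-CoA to malonyl-CoA, and Fasn joins these units into palmitate. Elovl6 lengthens palmitate to stearate, and Scd1 places a double bond in stearate and palmitate, which yields oleate and palmitoleate. Elovl5, Fads1 and Fads2 lengthen and desaturate polyunsaturated fatty acids, Thrsp is a small protein that responds to thyroid hormone and carbohydrate and promotes lipogenesis, and Mlxipl encodes the carbohydrate-responsive transcription factor ChREBP. In liver the pathway is known to respond to insulin through the factor encoded by Srebf1, to sugar through ChREBP, and to oxysterols through the liver X receptors.

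Each unique molecular identifier (UMI) counted 1 captured RNA molecule. The libraries held 71635757 UMIs over 7359 barcodes (chow) and 39440182 UMIs over 5881 barcodes (NASH diet). Hepatocytes were taken as barcodes with at least 5000 UMIs, at most 30% mitochondrial UMIs and at least 5% of UMIs from 14 hepatocyte marker genes, none of which is among the 10 genes described. This gave 1972 chow hepatocytes with a median of 25805 UMIs and 1048 NASH diet hepatocytes with a median of 20678 UMIs. The libraries shared 69 barcodes, of which 1 was a hepatocyte barcode in both. Levels are UMIs summed over the barcodes of a class per 1000000 UMIs of that class (CPM), with exact 95% Poisson intervals that cover counting error only. In hepatocytes the summed markers of endothelial, Kupffer, other leukocyte and mesenchymal cells each lay between 0.664 and 7.66 CPM. The 8 cholangiocyte markers summed to 154 CPM in chow and 56.7 CPM in the NASH diet, nearly all from Spp1, Sox9 and Cdh1, while Cldn7 was at 0 and Epcam, Krt19 and Krt7 had at most 5 UMIs each.

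The mitochondrial share differed between the libraries and divided the NASH diet hepatocytes. Its median was 18.5% in chow and 23.4% in the NASH diet. In the NASH diet library 144 hepatocytes had under 15% mitochondrial UMIs, with a median share of 3.72% and a median of 11461 UMIs, and the other 904 had a median share of 24.3% and a median of 21436 UMIs. In chow 316 hepatocytes lay under 15%, with a median share of 11.4% and a median of 21730 UMIs. The bands under 15% thus differed between the libraries in mitochondrial share and depth, so ratios between them do not compare matched cells. Several of the genes differed between these bands of mitochondrial share, so values within the bands are given beside the results whose size or direction they change; the part of the mitochondrial share in the results was not tested.

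Over all hepatocytes Scd1 was 8.23-fold higher in the NASH diet library than in chow and stood far apart from the rest of the pathway. Thrsp was 2.52-fold higher, and Fads2, Elovl5 and Elovl6 were higher by 1.36-fold to 1.59-fold. Scd1 did not stand apart among hepatocytes under 15% mitochondrial UMIs. There the log2 ratio of NASH diet over chow was 1.46 for Scd1 and 1.78 for Thrsp. Acaca was at nearly the same level over all hepatocytes of both libraries, but not among those with under 15% mitochondrial UMIs. Acly, Fasn, Fads1 and Mlxipl were lower in the NASH diet library, at 0.517, 0.707, 0.830 and 0.866 of the chow level. Of the 10 genes 6 were thus higher and 4 lower in the NASH diet library, and the plot of hepatocyte levels and ratios shows each of them.

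**Figure D1:**
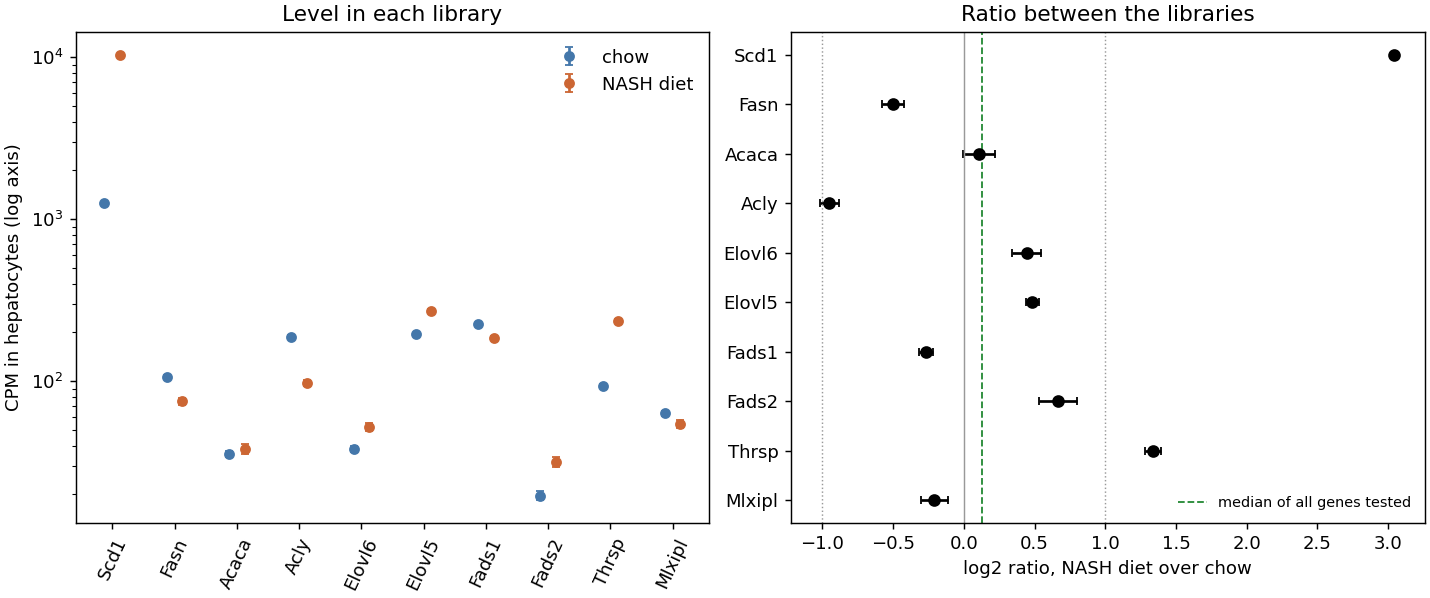
Left, CPM of each of the 10 genes in hepatocytes of the chow and the NASH diet library on a log axis; right, log2 ratio of NASH diet over chow, with a dashed line at the median of all genes tested (0.13) and dotted lines at a 2-fold difference. Bars are 95% Poisson intervals of counting error, and Scd1 at 3.04 and Thrsp at 1.34 are the genes beyond the dotted lines.

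Ratios are given on the scale log2(CPM + 1), NASH diet over chow. Over the 6416 genes with at least 10 CPM in the hepatocytes of either library the median ratio was 0.13, and 3.24% were higher and 2.52% lower by at least 2-fold. Of the 10 genes, 2 were higher by at least 2-fold and 0 were lower. The median ratio of the 10 genes was 0.28, and 5 of the 10 lay above the median of all genes. This median was -0.0558 with a mitochondrial limit of 20%. It was positive in the other alternatives tried, at 0.15 relative to the median of all genes.

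Among the enzymes that supply and assemble carbon, Acly, the ATP citrate lyase, had a level of 189 CPM (185 to 193) in chow hepatocytes and of 97.2 CPM (93.2 to 101) in NASH diet hepatocytes. This was a log2 ratio of -0.95, just short of a 2-fold difference. Acly passed that size relative to the median of all genes (-1.08), without the 50 most abundant genes (-1.01) and with a mitochondrial limit of 20% (-1.67). Its ratio was -1.89 among hepatocytes under 15% mitochondrial UMIs and -0.89 among those at 15 to 30%. Fasn, the fatty acid synthase, had a level of 106 CPM (104 to 109) in chow hepatocytes and of 75.0 CPM (71.5 to 78.7) in NASH diet hepatocytes, a log2 ratio of -0.50. Acaca, the acetyl-CoA carboxylase of the cytosol, had a level of 35.5 CPM (33.8 to 37.1) in chow hepatocytes and of 38.3 CPM (35.8 to 40.9) in NASH diet hepatocytes. The Acaca intervals overlapped, and its log2 ratio of 0.11 turned to -0.0205 relative to the median of all genes. Under 15% mitochondrial UMIs Acaca was lower in the NASH diet, at 36.9 CPM in chow and 18.8 CPM, a ratio of -0.94, against 0.19 at 15 to 30%. The Fasn ratio was -0.90 in the lower band and -0.47 in the upper. None of the 3 enzymes that make palmitate from citrate was therefore clearly higher in the NASH diet library.

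Scd1, the stearoyl-CoA desaturase of liver, had a level of 1255 CPM (1245 to 1265) in chow hepatocytes and of 10337 CPM (10296 to 10379) in NASH diet hepatocytes, a log2 ratio of 3.04. This lay at percentile 99.8 of the genes tested. Its UMIs were spread over many cells: 1922 of 1972 chow hepatocytes and 1048 of 1048 NASH diet hepatocytes had at least 1 Scd1 UMI, and the barcode with the most held 0.690% and 0.620% of them. The ratio depended on which hepatocytes entered. It was 1.46 between hepatocytes under 15% mitochondrial UMIs, at 1039 CPM in chow and 2860 CPM in the NASH diet, and 3.11 between those at 15 to 30%, at 1291 and 11160 CPM. With a mitochondrial limit of 20%, which left 1292 chow and 290 NASH diet hepatocytes, it was 2.44. Scd1 was higher in the NASH diet library in each of these comparisons, and least so among the hepatocytes with few mitochondrial UMIs.

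Over all hepatocytes the other liver desaturases and elongases differed far less. Elovl6, which acts on palmitate just before Scd1, had a level of 38.2 CPM (36.5 to 39.9) in chow hepatocytes and of 52.4 CPM (49.4 to 55.4) in NASH diet hepatocytes, a log2 ratio of 0.45. Among hepatocytes under 15% mitochondrial UMIs the direction of Elovl6 was opposite, at 30.2 CPM in chow and 19.7 CPM in the NASH diet (-0.59), against 0.49 at 15 to 30%. Elovl5, an elongase of polyunsaturated fatty acids, had a level of 195 CPM (191 to 198) in chow hepatocytes and of 273 CPM (266 to 280) in NASH diet hepatocytes, a ratio of 0.48. This direction held among hepatocytes with 15 to 30% mitochondrial UMIs, at 199 and 296 CPM, but was opposite among those under 15%, as for Elovl6, at 167 and 59.4 CPM. Fads2, the desaturase that starts the polyunsaturated series, had a level of 19.6 CPM (18.4 to 20.9) in chow hepatocytes and of 31.7 CPM (29.4 to 34.1) in NASH diet hepatocytes, a ratio of 0.67. Fads1, the desaturase that follows it and lies near it on chromosome 19, was lower, with 224 CPM (220 to 228) in chow hepatocytes and 186 CPM (180 to 191) in NASH diet hepatocytes, a ratio of -0.27. The Fads1 ratio was -1.55 among hepatocytes under 15% mitochondrial UMIs and -0.21 at 15 to 30%. Fads1 and Fads2 thus had ratios of opposite sign, and so did the desaturases Scd1 and Fads1.

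The remaining genes act on the pathway from outside the enzyme chain. Thrsp had a level of 93.2 CPM (90.5 to 95.9) in chow hepatocytes and of 237 CPM (230 to 243) in NASH diet hepatocytes, a log2 ratio of 1.34. Within the NASH diet library its level ran opposite to that of Scd1 between the mitochondrial bands: Thrsp was at 585 CPM under 15% and 198 CPM at 15 to 30%, against 170 and 80.6 CPM in chow. The Thrsp ratio was 1.78 in the lower band and 1.29 in the upper. Mlxipl, the gene of ChREBP, had a level of 63.2 CPM (61.0 to 65.4) in chow hepatocytes and of 54.6 CPM (51.6 to 57.7) in NASH diet hepatocytes, a ratio of -0.21. The transcript of this sugar-responsive factor was thus not higher in the library of the high-fructose diet; the deposited gene counts do not separate its isoforms.

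Among the 144 NASH diet hepatocytes with under 15% mitochondrial UMIs, 9 of the 10 genes had a lower CPM than in the other 904, and Thrsp had a higher one. The share of all genes that were lower in this band was not computed, so the count does not set the 10 genes apart. The gap was widest for Elovl5 (59.4 against 296 CPM), Scd1 (2860 against 11160 CPM) and Fads1 (60.3 against 199 CPM). The nuclear RNA Malat1 was at 1260 and 972 CPM in these bands, and was uneven within the lower one. There it was at 1697 CPM in 45 pericentral, 2939 CPM in 34 middle and 116 CPM in 65 periportal hepatocytes (zones are defined with the zone results), against 716 to 1188 CPM in the zones of the upper band. Its part in the values of the 144 hepatocytes was not tested. In chow Scd1 and Fads1 differed less between the bands, with Scd1 at 1039 and 1291 CPM and Fads1 at 179 and 231 CPM.

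The 10 genes lie on 6 chromosomes of the mm10 build that the submitters' processing notes name, with positions here from the GENCODE M21 annotation of the same assembly. Scd1 spans chr19:44394455-44407879, Fads2 chr19:10062765-10101746, Fads1 chr19:10182888-10196877, Fasn chr11:120805846-120824547, Acly chr11:100476353-100528000 and Acaca chr11:84129672-84401651. Elovl6 spans chr3:129532355-129638495, Elovl5 chr9:77917364-77984519, Thrsp chr7:97412938-97417730 and Mlxipl chr5:135089890-135138382. All 10 are annotated as protein-coding. Acaca, Elovl6 and Mlxipl each overlap a gene on the opposite strand that is also in the files (Gm11437, Gm35986 and Gm43500); no source used here states whether strand was used in counting, so reads of those pairs may not be fully separated.

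Promoter windows from RefSeq (build GRCm38.p6, 250 bases before to 50 bases after the start) were matched by symbol for 8 of the 10 genes, with 9 windows in all. The windows of Thrsp and Elovl5, which were higher in the NASH diet library, and of Fasn and Acly, which were lower, are printed so that genes with opposite ratios can be compared. Capitals mark matches on either strand to CCAAT (the box bound by NF-Y), CACGTG (an E-box core), GGGCGG (a GC box) and TCACNCCAC (a sterol regulatory element). The windows lie at chr7:97417501-97417800 on the minus strand (Thrsp), chr9:77917115-77917414 on the plus strand (Elovl5), chr11:120824498-120824797 on the minus strand (Fasn) and chr11:100527951-100528250 on the minus strand (Acly).
Thrsp: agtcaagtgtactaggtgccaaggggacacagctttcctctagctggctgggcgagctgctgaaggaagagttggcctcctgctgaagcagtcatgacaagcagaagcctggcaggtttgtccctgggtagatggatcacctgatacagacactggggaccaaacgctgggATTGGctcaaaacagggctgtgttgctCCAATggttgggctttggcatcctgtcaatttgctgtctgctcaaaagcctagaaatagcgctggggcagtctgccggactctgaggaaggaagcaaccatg
Elovl5: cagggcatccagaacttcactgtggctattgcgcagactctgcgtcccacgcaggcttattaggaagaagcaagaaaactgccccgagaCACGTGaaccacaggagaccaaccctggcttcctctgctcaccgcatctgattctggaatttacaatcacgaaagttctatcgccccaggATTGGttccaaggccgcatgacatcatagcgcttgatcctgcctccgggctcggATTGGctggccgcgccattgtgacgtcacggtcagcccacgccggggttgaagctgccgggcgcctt
Fasn: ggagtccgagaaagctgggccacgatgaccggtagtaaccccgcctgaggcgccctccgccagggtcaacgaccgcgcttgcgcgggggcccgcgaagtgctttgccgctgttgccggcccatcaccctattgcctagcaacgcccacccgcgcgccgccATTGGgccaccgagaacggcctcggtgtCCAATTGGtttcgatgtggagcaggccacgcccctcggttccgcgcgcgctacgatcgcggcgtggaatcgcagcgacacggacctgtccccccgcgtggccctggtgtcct
Acly: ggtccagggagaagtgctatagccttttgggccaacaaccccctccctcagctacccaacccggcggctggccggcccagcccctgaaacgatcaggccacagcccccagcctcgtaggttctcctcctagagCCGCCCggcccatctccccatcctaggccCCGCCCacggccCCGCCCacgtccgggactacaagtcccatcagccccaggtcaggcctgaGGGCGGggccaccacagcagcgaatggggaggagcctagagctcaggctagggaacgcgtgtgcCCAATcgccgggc

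Genes of both directions carried the CCAAT box: the Thrsp window held 2 matches, Elovl5 2, Fasn 3 of which 2 overlap, and Acly 1. It was found in 5 of the 9 windows and in 37.4% of the 32851 RefSeq windows of this length. The Elovl5 window also held 1 CACGTG match, which was found in 2 of the 9 windows against 7.15% of all. GGGCGG was found in 3 of 9 windows (35.7% of all), with 4 matches in Acly, and TCACNCCAC in 1 of 9 (1.24% of all), a window of Mlxipl. These matches describe letters in the windows, not bound sites.

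The neighbouring steps of lipid metabolism, from gene lists chosen with earlier results of these data known, differed in both directions. Past 2-fold, 5 of their genes were lower in the NASH diet library (Acss2, Elovl3, Insig1, Srebf2 and Lpin1) and 1 was higher (Txnip). For all of these lists the background is the 3.24% of genes higher and 2.52% lower by 2-fold. In precursor and NADPH supply 6 of 7 genes reached 10 CPM, of which 1 was higher and 5 lower, with a median log2 ratio of -0.48. Acss2, which makes acetyl-CoA from acetate, was the gene of this list beyond 2-fold, at 78.2 CPM in chow and 37.6 CPM in the NASH diet. The 3 genes of malonyl-CoA turnover had a median of 0.38, with 2 higher and 1 lower. Of the 6 other elongation enzymes 3 were higher and 3 lower, and Elovl3 was beyond 2-fold, at 151 CPM in chow and 49.5 CPM in the NASH diet (log2 ratio -1.59).

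Regulators of the pathway divided. Of the 9 regulators with at least 10 CPM, 4 were higher and 5 lower, with a median of -0.00876. Insig1, which retains SREBP precursors in the endoplasmic reticulum and is itself a target of SREBPs, was at 271 CPM in chow and 66.7 CPM in the NASH diet, a log2 ratio of -2.01. Srebf2, which encodes the SREBP that drives cholesterol synthesis, was at 37.4 and 13.6 CPM, a ratio of -1.39. Srebf1, which encodes the SREBP of fatty acid synthesis and is named here after its value was seen, was higher, at 40.3 and 71.7 CPM (0.82). The transcripts of the 2 SREBP genes thus had ratios of opposite sign. In esterification 4 of 5 genes were higher, and Lpin1, a phosphatidate phosphatase, was lower by over 2-fold (101 and 45.8 CPM, -1.12). All 6 sugar response genes were higher, with a median of 0.54, and Txnip, a glucose-induced target of ChREBP, was beyond 2-fold at 18.7 and 53.3 CPM (1.46). Of the other desaturases 1 of 5 reached 10 CPM in hepatocytes, and Scd2, Scd3 and Scd4 lay at 0.310 CPM or less in both libraries.

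The liver lobule runs from the portal tract to the central vein, and fatty acid synthesis is known to vary along this axis. Hepatocytes of each library were ranked by 9 pericentral minus 9 periportal landmark genes and divided into 3 groups of equal size. Held out of the score were 3 pericentral genes (Cyp1a2, Gulo and Rgn) and 3 periportal genes (Hal, Ctsc and Cps1). The median of Cyp1a2 was 345 and 462 CPM in the pericentral groups of chow and NASH diet and 0 in both periportal groups. That of Hal was 0 in the pericentral and 318 and 391 CPM in the periportal groups. Cps1 followed the score less closely. Its medians from pericentral to periportal were 986, 1210 and 1246 CPM in chow. In the NASH diet they were 879, 1952 and 1738 CPM, highest in the middle group. The rank correlation of the score with that of the held-out genes was 0.873 in chow and 0.766 in the NASH diet. The score is a range and not a type. Of 1972 chow hepatocytes 279 lay within 0.1 SD of the periportal limit and 85 of the pericentral limit, and of 1048 NASH diet hepatocytes 221 and 33.

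Over all chow hepatocytes, 9 of the 10 genes had their lowest level in the pericentral group and their highest in the periportal group. Mlxipl alone had the reverse order. Log2 ratios of pericentral over periportal were -1.78 for Acly, -1.14 for Thrsp, -0.96 for Acaca and -0.84 for Fasn. They were -0.60 for Elovl5, -0.48 for Elovl6, -0.40 for Scd1 and -0.28 for both Fads1 and Fads2, against 0.54 for Mlxipl. Over all chow hepatocytes the enzymes that make palmitate from citrate and Thrsp therefore showed steeper differences than the desaturases. Among those under 15% mitochondrial UMIs the sign was opposite for Elovl6 (0.13) and Mlxipl (-0.18). Scd1 was at -1.01 in that band, steeper than Fasn (-0.88), Acaca (-0.95) and Thrsp (-0.68), while Acly was at -2.13. Past 2-fold over all chow hepatocytes, 2 of the 10 were lower in the pericentral group (background 1.86%) and 0 were higher (background 2.56%). Of these, Acly kept this size in the alternatives tried, and Thrsp was at -0.66 when held-out genes set the zones and at -0.75 with a mitochondrial limit of 20%. Acaca reached -1.01 when held-out genes set the zones. The median of the 10 genes was -0.54, and that of all 6287 genes tested was 0.11.

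In the NASH diet library 6 of the 10 genes were higher in the pericentral group than in the periportal group. The median of the 10 was 0.13, close to the 0.16 of all 6542 genes tested. Acly kept its order, at 41.1, 124 and 142 CPM in the pericentral, middle and periportal groups, a ratio of -1.77 that was nearly that of chow, where it was at 82.6, 199 and 286 CPM. It was the 1 gene of the 10 lower by over 2-fold in the pericentral group (background 1.88%), and 0 of 10 were higher by that much (background 4.37%). Elovl5 (-0.67), Acaca (-0.47) and Fads1 (-0.26) also stayed higher in the periportal group, and Mlxipl stayed higher in the pericentral group (0.87). Among the 144 hepatocytes with under 15% mitochondrial UMIs the order was the reverse for Elovl5 (1.02), Acaca (0.31) and Fads1 (1.73), and Acly was at -0.24. Mlxipl (2.34), Elovl6 (1.64), Scd1 (1.59) and Fasn (1.32) were also higher by over 2-fold in the pericentral part of this band. Mlxipl and Elovl6 had 11 and 10 UMIs in its periportal part, and at 15 to 30% they were at 0.72 and 0.11. The share of all genes past 2-fold was not computed within the bands. For 5 genes the sign differed between the libraries: Scd1, Fasn, Elovl6, Fads2 and Thrsp. The share of all genes whose sign differed was not computed, so this count has no background. Fads2 was nearly level, at 32.3, 31.6 and 30.9 CPM from the pericentral to the periportal group, and its counting interval included 0. The difference in sign between the diets has no test with 1 library a diet. The summed cholangiocyte markers moved with the zones, at 22.3, 167 and 273 CPM from pericentral to periportal in chow and 16.3, 74.6 and 90.5 CPM in the NASH diet, and their part in these differences was not tested.

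**Figure D2:**
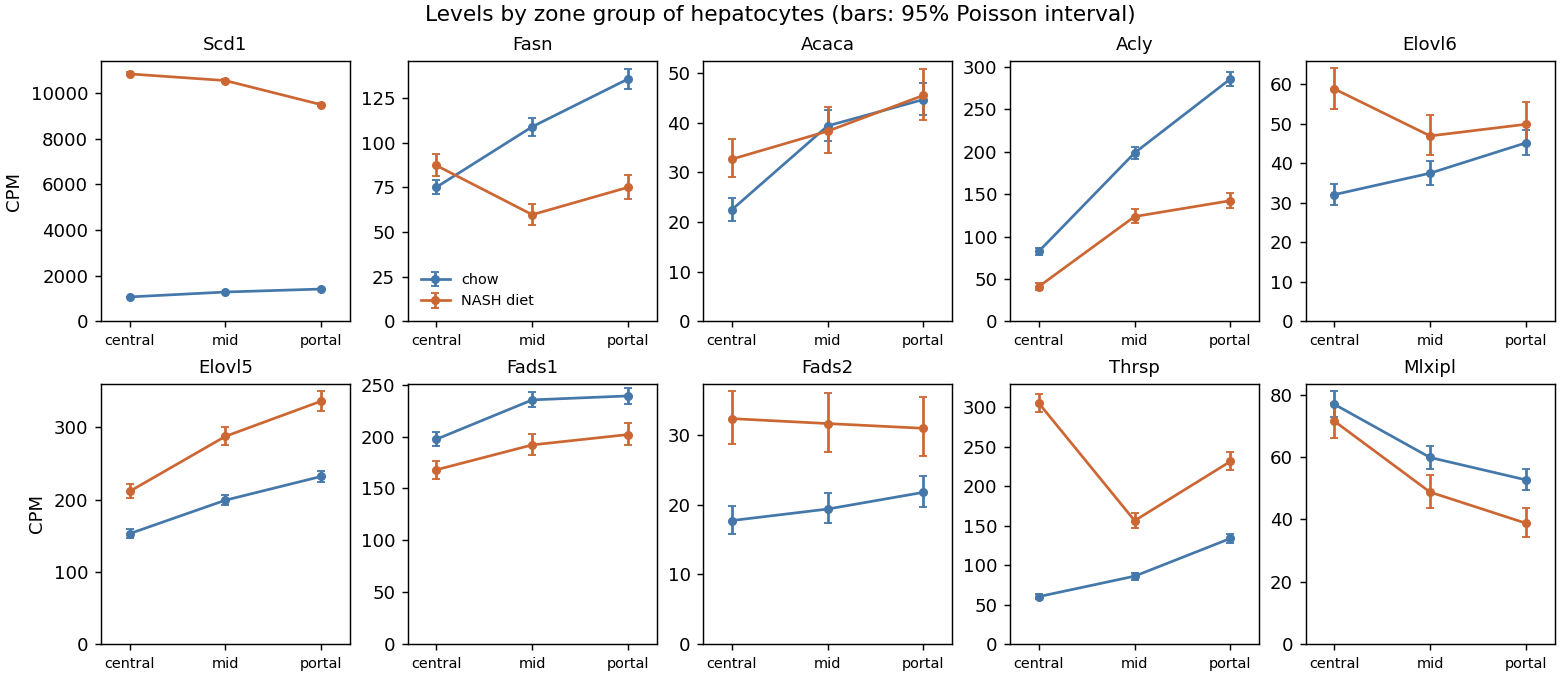
CPM of each gene in the pericentral (central), middle (mid) and periportal (portal) hepatocyte groups of the chow and NASH diet libraries, with 95% Poisson intervals of counting error and every axis starting at 0. In chow 9 of 10 lines climb from central to portal; in the NASH diet those of Scd1, Fasn, Elovl6, Fads2 and Thrsp do not.

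Over all hepatocytes the pericentral to periportal ratio of Thrsp differed between the libraries by 1.54, more than that of the other 9 genes. This order did not hold with a mitochondrial limit of 20%, where Thrsp was at -0.75 in chow and -0.17 in the NASH diet, Fasn at -0.77 and 0.76, and Elovl6 at -0.52 and 1.02. In chow Thrsp was at 60.0, 85.9 and 134 CPM in the pericentral, middle and periportal groups, and in the NASH diet at 305, 156 and 231 CPM. The lowest NASH diet group was thus the middle one, and it still lay above every chow group. The diet ratio of Thrsp was 2.33 in the pericentral group, 0.86 in the middle and 0.79 in the periportal group. The pericentral to periportal ratio of Thrsp in the NASH diet was 0.40 over all hepatocytes, 0.53 among those with 15 to 30% mitochondrial UMIs and 0.56 among those under 15%.

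Fasn was at 75.1, 109 and 136 CPM in the pericentral, middle and periportal groups of chow and at 87.2, 59.7 and 75.0 CPM in those of the NASH diet. Its diet ratio was 0.21 in the pericentral group, -0.86 in the middle and -0.85 in the periportal group. The lower Fasn level of the NASH diet was thus seen in the middle and periportal groups and not in the pericentral group. The pericentral to periportal ratio of Fasn in the NASH diet was 0.21 over all hepatocytes, 1.32 among those under 15% mitochondrial UMIs, 0.0863 among those at 15 to 30% and 0.76 with a mitochondrial limit of 20%. In the pericentral NASH diet group 1 barcode held 3.66% of the Fasn UMIs.

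Scd1 was at 1069, 1284 and 1415 CPM in the pericentral, middle and periportal groups of chow and at 10832, 10541 and 9487 CPM in those of the NASH diet. Its diet ratio was 3.34 in the pericentral group, 3.04 in the middle and 2.74 in the periportal group. The pericentral to periportal ratio in the NASH diet, 0.19, was small beside that between the diets. It was 0.0705 among hepatocytes with 15 to 30% mitochondrial UMIs, 1.59 among the 144 under 15%, and -0.0822 when the held-out genes set the zones. The held-out genes include Cps1, whose rank correlation with Scd1 over single hepatocytes was 0.405 in chow and 0.375 in the NASH diet. The part of Cps1 in the value of -0.0822 was not tested. In chow it lay between -0.51 and -0.35 in the alternatives tried, and at -1.01 among the 316 hepatocytes under 15% mitochondrial UMIs. Scd1 was thus higher in the periportal group in each of these chow comparisons, while its order in the NASH diet depended on how zones and hepatocytes were chosen.

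Within zones, 2 of 10 genes were higher by 2-fold in the NASH diet in the pericentral group (background 3.70%) and 0 were lower (background 2.54%). In the middle group 1 was higher (background 2.83%) and 0 lower (background 3.19%), and in the periportal group 1 was higher (background 3.43%) and 1 lower (background 3.45%). Scd1 was among those higher in all 3 groups, Thrsp in the pericentral group, and Acly was the gene lower in the periportal group, at 286 CPM in chow and 142 CPM in the NASH diet. Acly lay just short of 2-fold in the pericentral group, at 82.6 and 41.1 CPM (-0.99), so its zones are not set apart by that count. Elovl6 was at 32.0 CPM in the pericentral group of chow and 58.7 CPM in that of the NASH diet (0.86), against 45.1 and 49.8 CPM in the periportal groups (0.14).

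To compare single cells at equal depth, each hepatocyte was thinned at random to 5000 UMIs. Scd1 then had a median of 4 UMIs per cell in chow (lowest 0, highest 78) and 49 in the NASH diet (lowest 1, highest 155). Of 1972 chow hepatocytes 11 lay above the NASH diet median, and of 1048 NASH diet hepatocytes 24 lay below the chow median. At the edges the distributions overlapped more: 124 NASH diet hepatocytes (11.8%) lay below the chow 90th percentile, and 267 chow hepatocytes (13.5%) lay above the NASH diet 10th percentile. The higher level of the NASH diet library was thus present in most of its hepatocytes. In both libraries Scd1 varied between cells more than counting alone gives, with a variance over mean of 10.8 in chow and 15.2 in the NASH diet, where Poisson counts give 1. The other genes lay between 0.982 and 1.83 in chow and between 1.01 and 2.80 in the NASH diet, highest for Thrsp in both. Where cells differ in level, this measure also rises with the mean of a gene. The mean thinned count of Scd1 was 6.41 (chow) and 50.4 (NASH diet). For the other genes the means ran from 0.0938 (Fads2) to 1.13 (Fads1) in chow. Those of the NASH diet library ran from 0.156 (Fads2) to 1.35 (Elovl5). Variance over mean therefore does not rank the genes or the libraries by how much cells varied.

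**Figure D3:**
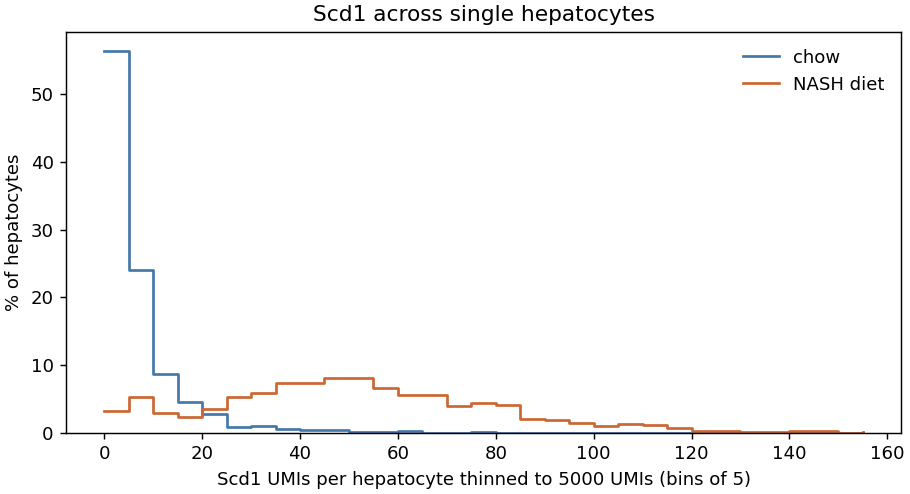
Share of hepatocytes by Scd1 UMIs after thinning each cell to 5000 UMIs, in bins of 5 UMIs, for 1972 chow and 1048 NASH diet hepatocytes. The chow line is highest in the first bin (median 4), and the NASH diet line is broad around its median of 49 with a smaller rise at low values.

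The share of thinned hepatocytes with at least 1 UMI followed the levels for the other genes. It was 33.3% in chow and 58.0% in the NASH diet for Thrsp, 57.6% and 64.8% for Elovl5, 55.0% and 34.7% for Acly, and 39.4% and 27.1% for Fasn. Before thinning, 1412 of 1972 chow and 906 of 1048 NASH diet hepatocytes had a Thrsp UMI, and 1743 and 797 had an Acly UMI. As a background, 5 of 71 chow and 4 of 37 NASH diet Kupffer cell barcodes, a type not known to use Thrsp, held a Thrsp UMI, at median depths of 4939 and 1441 UMIs. Most of the 10 genes gave 0 or 1 UMI per thinned cell, which limits what a cell by cell relation can show.

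The Spearman rank correlation (rho) of Scd1 with the other 9 genes over thinned hepatocytes had a median of 0.151 in chow and 0.0826 in the NASH diet. The 970 genes compared with Scd1, those with a mean of at least 0.5 thinned UMIs in both libraries, had medians of -0.00563 and -0.0541. These values describe the cells of 1 library each, which share its depth, its free RNA and the sum that thinning fixes, and they carry no test. In chow the highest were Acly (0.267), Elovl5 (0.192), Fasn (0.189), Fads1 (0.162) and Thrsp (0.151), and in the NASH diet Elovl5 (0.407) and Fads1 (0.241), with Acly at 0.0941, Fasn at 0.0826 and Thrsp at 0.00125. Among the 36 pairs without Scd1 the median was 0.0381 in chow and 0.0150 in the NASH diet. Over all hepatocytes Acly and Fasn thus had the higher rho with Scd1 in chow, and Elovl5 and Fads1 in the NASH diet, while Acaca was nearly level (0.0753 and 0.0675). These differences in rho were not tested. That of Fads1 did not hold within 15 to 30% mitochondrial UMIs, where its rho was 0.124 in chow and 0.0971 in the NASH diet. Mean thinned UMIs also differed between chow and the NASH diet, at 0.976 and 0.471 for Acly and 0.537 and 0.340 for Fasn. They were 0.960 and 1.35 for Elovl5 and 1.13 and 0.885 for Fads1. The part of these levels in rho was not tested.

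**Figure D4:**
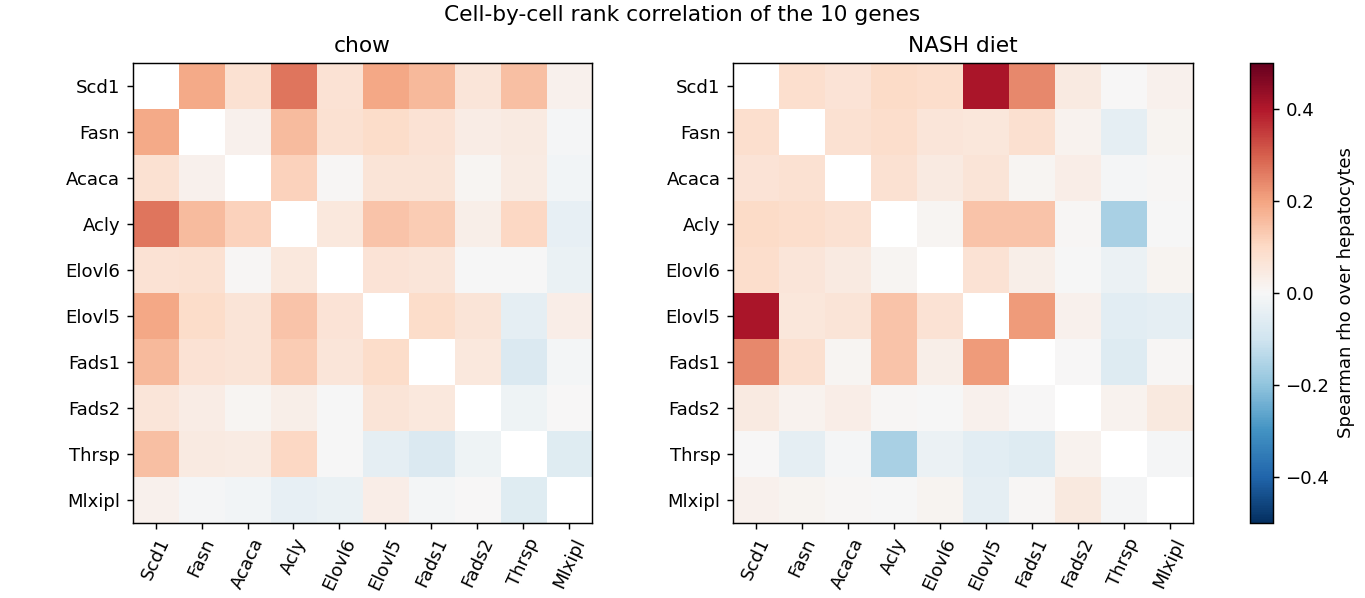
Spearman rho for each pair of the 10 genes over thinned hepatocytes of chow (left, 1972 cells) and of the NASH diet (right, 1048 cells), on a colour scale from -0.5 (blue) to 0.5 (red). The darkest cells are Scd1 with Acly in chow (0.267) and Scd1 with Elovl5 in the NASH diet (0.407).

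The mitochondrial share moved with these relations. In the NASH diet library its rho was 0.473 with Scd1, 0.314 with Elovl5, 0.177 with Fads1 and -0.197 with Thrsp, against 0.0824, 0.107, 0.0743 and -0.178 in chow. Among the 904 NASH diet hepatocytes with 15 to 30% mitochondrial UMIs the rho of Scd1 was 0.263 with Elovl5, 0.0971 with Fads1 and 0.208 with Thrsp. The relation to Elovl5 was thus smaller within that band, and the one to Thrsp larger. By zone, the rho of Scd1 with Thrsp in the NASH diet was 0.137 in pericentral, 0.00920 in middle and -0.181 in periportal hepatocytes. Among the 1656 chow hepatocytes of the band the rho was 0.265 with Acly, 0.248 with Thrsp, 0.142 with Elovl5 and 0.124 with Fads1.

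Sorting the hepatocytes by thinned Scd1 into 5 groups of nearly equal size showed the size of these relations. In chow the group highest in Scd1 had 313 CPM of Acly against 122 CPM in the lowest, a 2.56-fold difference, and 161 against 67.8 CPM of Fasn, 2.36-fold. Elovl5 was at 274 and 141 CPM, while Mlxipl was at 69.0 and 62.8 CPM with overlapping intervals. The lowest Scd1 group in chow held 51.4% pericentral cells and the highest 26.6%, so zone and Scd1 level were not separated here. The median rho within zones in chow was 0.245 for Acly and 0.162 for Fasn.

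In the NASH diet the group highest in Scd1 had 413 CPM of Elovl5 against 75.2 CPM in the lowest, a 5.44-fold difference, and 233 against 88.6 CPM of Fads1, 2.61-fold. Thrsp was at 460 CPM in the lowest Scd1 group, 147 CPM in the next, 156 CPM in the middle group, 224 CPM in the fourth and 309 CPM in the highest. The course of Thrsp across Scd1 was thus not monotonic. The lowest Scd1 group had a median mitochondrial share of 8.53%, and the other 4 groups had 22.7% to 25.3%.

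The 8 genes most like Scd1, ranked by the lower of the chow and NASH diet rho, were Cps1, Alb, Pigr, H2-K1, Cat, B2m, H2-Q10 and Hsd11b1, over 1972 and 1048 cells. Cps1, an enzyme of the urea cycle, had a rho of 0.405 in chow and 0.375 in the NASH diet, and Alb, which encodes albumin, 0.369 and 0.325. None of the 8 is in the pathway. Of the 10 genes, Elovl5 was at rank 11, Fads1 at rank 17 and Thrsp at rank 352 of 970. The other 6 had too few UMIs in at least 1 library to be ranked. For Acly and Fasn this was so in the NASH diet only, with means of 0.471 and 0.340 thinned UMIs. Their rho with Scd1 in chow was 0.267 and 0.189, against 0.229 for Hsd11b1.

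Outside hepatocytes the classes were small: 54 chow and 42 NASH diet endothelial barcodes, 71 and 37 Kupffer cell barcodes, 10 and 15 mesenchymal barcodes, 12 and 20 barcodes of other leukocytes, and 2 and 3 of cholangiocytes, which are too few to describe. Each class also carried hepatocyte RNA, with the 14 hepatocyte markers at 3125 to 13980 CPM in the first 4 classes. The UMIs of each gene were therefore set beside the number this hepatocyte RNA would bring, taken from the ratio of the gene to the hepatocyte markers in low-UMI droplets and again in hepatocytes. A gene is said to exceed the carried RNA where its exact 95% Poisson interval lay above both numbers. These numbers cover hepatocyte RNA only. The mesenchymal barcodes also held endothelial and Kupffer markers, at 8316 and 4835 CPM in chow and 5885 and 1452 CPM in the NASH diet. Their own markers were at 21168 and 19702 CPM. The part of RNA from the other non-parenchymal classes in the values below was not tested.

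Acly exceeded the carried RNA in endothelial, Kupffer and mesenchymal barcodes of both libraries. In Kupffer cells it had 115 UMIs in chow (95 to 138) where 3.91 and 10.6 were expected, and 18 UMIs in the NASH diet (10.7 to 28.4) where 0.995 and 1.28 were. In endothelial barcodes it had 31 UMIs in each library, with at most 4.61 and 1.45 expected. This is the enzyme whose product also feeds cholesterol synthesis and histone acetylation in many cell types. Elovl5 exceeded the carried RNA in endothelial and Kupffer barcodes of both libraries and in mesenchymal barcodes of the NASH diet, and Fads1 did so in endothelial and mesenchymal barcodes of both. Endothelial barcodes held 19 (chow) and 30 (NASH diet) Elovl5 UMIs, with at most 4.75 and 4.08 expected. Acaca exceeded it with few UMIs, 3 to 11, in endothelial and Kupffer barcodes of both libraries and in mesenchymal barcodes of the NASH diet.

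Fasn, Elovl6, Fads2, Thrsp and Mlxipl did not exceed the carried RNA in endothelial, Kupffer, mesenchymal or other leukocyte barcodes of either library. Most of these counts were 0 to 7 UMIs, so low levels were not detectable at this depth. Scd1 in most of these classes lay near the number expected from hepatocytes and above that expected from low-UMI droplets. In NASH diet Kupffer cells it had 142 UMIs (120 to 167), where low-UMI droplets gave 72.9 and hepatocytes 137. In NASH diet endothelial barcodes it had 192 UMIs (166 to 221), where the expected numbers were 82.4 and 155, so that this 1 class exceeded both by a small margin. Each of the 42 endothelial and 37 Kupffer barcodes of the NASH diet held an Scd1 UMI. Scd1 was at 551 CPM in endothelial and 1215 CPM in Kupffer barcodes of the NASH diet, against 87.7 and 175 CPM in chow. Chow endothelial barcodes had 23 Scd1 UMIs, where droplets gave 11.5 and hepatocytes 30.7. Chow Kupffer cells had 85, where droplets gave 26.4 and hepatocytes 70.2. The part of carried RNA in these levels was not tested.

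Scd2, the desaturase of the same family that other tissues use and that is named here after its values were seen, had the opposite distribution. It lay at 0.178 and 0.310 CPM in chow and NASH diet hepatocytes and was almost free of carried hepatocyte RNA, with at most 0.0592 UMIs expected in any of the 4 classes. A single UMI could pass that limit, so the counts themselves are given. Endothelial barcodes had 5 UMIs (19.1 CPM) in chow and 43 UMIs (123 CPM) in the NASH diet, and mesenchymal barcodes 8 UMIs (70.3 CPM) and 51 UMIs (221 CPM). In Kupffer cells it had 33 UMIs (68.1 CPM) in chow and 17 UMIs (145 CPM) in the NASH diet. The intervals did not overlap between the libraries in endothelial (6.19 to 44.5 and 89.3 to 166 CPM) and mesenchymal barcodes (30.4 to 139 and 165 to 291 CPM), and they did in Kupffer cells (46.9 to 95.6 and 84.7 to 233 CPM). With 1 library a diet these differences were not tested. Because Scd1 to Scd4 are related genes, reads that match several of them may have been divided or dropped by the counting.

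**Figure D5:**
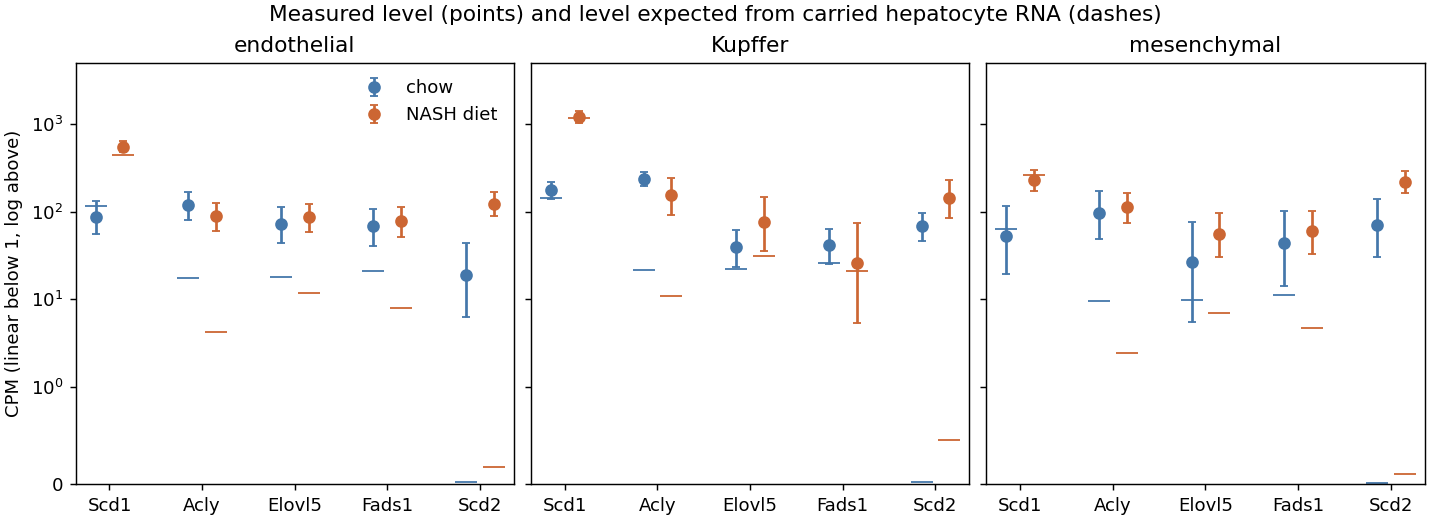
CPM of Scd1, Acly, Elovl5, Fads1 and Scd2 in endothelial, Kupffer and mesenchymal barcodes of the chow and NASH diet libraries (points with 95% Poisson intervals), with dashes at the larger of the levels expected from carried hepatocyte RNA; the axis is linear below 1 CPM and logarithmic above. Acly lies above its dashes in all 3 classes, and Scd1 lies close to its dashes.

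Low-UMI droplets, which hold under 2000 UMIs and no class of other cells, differed from hepatocytes for Thrsp. It was at 163 CPM in droplets against 93.2 CPM in hepatocytes of chow, and at 487 against 237 CPM in the NASH diet. Scd1 had the opposite order, at 462 against 1255 CPM in chow and 3839 against 10337 CPM in the NASH diet. The log2 ratio between the diets in droplets was 1.58 for Thrsp and 3.05 for Scd1, near the values in hepatocytes.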

How the data were processed

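Single-cell RNA sequencing of mouse liver was analysed in 1 chow and 1 NASH diet library. The kit was 10x Genomics 3' chemistry, version 3, per the labels. The deposited matrices hold UMI counts, whole numbers for each gene in each barcode, which the authors made with Cell Ranger, 3.0.2 per the file headers and 3.1.0 per the submitters' processing notes, which also name Seurat and mm10. A deposited merged matrix holds the same NASH diet counts and 86.4% of the chow UMIs and served as an alternative. The members, gene lists, filters and named genes were chosen with earlier results of these data known. Named genes are the 10 members, genes of 7 pathway lists past 2-fold, and the 8 genes most like Scd1. All classes needed at least 200 genes and at most 30% mitochondrial UMIs. Hepatocytes also had under 0.2% of UMIs from each other cell type's markers. Other classes needed at least 500 UMIs, 3 detected markers and 0.5% of UMIs from them. No doublets were removed in the main analysis, since Scrublet (scanpy 1.11.5) called 0 at its own threshold. CPM carried a pseudocount of 1 in ratios. No p-value was computed because each diet has 1 library. The code was tested on simulated data. Columns left unmatched to a sample numbered 0.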

Additional observations from a re-analysis of the deposited data

Results flagged for a closer look

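Fasn differed in direction between zones: its log2 ratio of NASH diet over chow was 0.21 in pericentral hepatocytes and -0.85 in periportal hepatocytes, from 1 library each. This difference was not tested.

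Scd1 was also read in barcodes left out for a high mitochondrial share. It was at 971 CPM in chow and 6650 CPM in NASH diet barcodes with 30 to 80% mitochondrial UMIs, and at 46.2 and 461 CPM in those over 80%.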

How the results depend on the processing

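No paired analysis was possible because each diet has 1 library and no comparison comes from a test. The log2 ratio of Scd1 between the diets kept its sign in 14 of 14 alternatives. It was 2.44 with a mitochondrial limit of 20%, where 49.7% of the NASH diet hepatocytes had under 15% mitochondrial UMIs, 3.05 with at least 10000 UMIs, 3.10 over non-mitochondrial UMIs, 2.91 centred on all genes, 2.99 without the 50 most abundant and the mitochondrial genes, 2.97 as a mean over cells, 3.09 without the highest Scrublet scores and 3.11 at a mitochondrial share of 15 to 30%, an alternative added after seeing the data. The median of the 10 genes was -0.0558 at the limit of 20% and 0.15 when centred. The number of genes past 2-fold was 2 or 3. At the limit of 20% Elovl5 was lower in the NASH diet (-0.12).

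The pericentral to periportal ratio of Scd1 in chow was -0.51 with smaller outer groups, -0.35 at the limit of 20%, -0.36 both over non-mitochondrial UMIs and at 15 to 30%, and -0.48 as a mean over cells. In the NASH diet it was 0.21 with smaller outer groups, 0.13 with cuts common to both libraries, -0.0822 with the held-out genes, 0.17 both at a limit of 50% and with at least 10000 UMIs, 0.24 as a mean over cells and 0.0705 at 15 to 30%. Other NASH diet zone ratios turned sign: Fads1 to 0.34 and Thrsp to -0.17 at the limit of 20%, and Fads2 to -0.0462 with smaller outer groups, -0.0413 with the held-out genes and -0.0438 at 15 to 30%.

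The median rho of Scd1 with the other genes in chow was 0.225 without thinning, 0.187 thinned to 10000 UMIs and 0.109 at the limit of 20%. In the NASH diet it was 0.165 without thinning, 0.0979 thinned to 10000 UMIs, 0.0751 within zones, 0.227 at the limit of 20%, 0.103 as Pearson's r and 0.0169 at 15 to 30%. The cause of these changes was not tested. Counts of 0 to 7 UMIs in the small classes, and 1 library a diet, limit what can be said.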
